A study of Python bivittatus with 8 samples.

Results

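In the left ventricle of Burmese pythons, 41 genes had much the same level in fasted and 1-day-fed hearts and a lower level on days 4 and 6 after a meal. They are 0.192% of the 21368 genes in the deposited table. They were selected on L, the log2 of CPM (each count scaled by its library total) plus 1, averaged over the 2 libraries of each group. A member had a mean L of at least 3 in fasted ventricle and differed by less than 1.5-fold, on the CPM + 1 scale, between 1 day post-fed (1DPF) and fasted. At both 4DPF and 6DPF its mean lay at least 0.5 below each of the fasted and 1DPF means. All 4 libraries of 4DPF and 6DPF, called late here, also had to lie below all 4 fasted and 1DPF libraries, called early here. The timing and the size of the fall are therefore what chose these genes, and they are given below as a description. Counts of members that pass a test in those comparisons are also given, with their change under other settings, and nothing is read from them.

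A python that eats after a long fast enlarges its heart within days, and the heart then shrinks back as digestion ends. The growth is an enlargement of existing heart muscle cells, and the shrinking that follows involves net loss of protein. In mammals, FoxO transcription factors are held out of the nucleus by insulin and growth factor signalling, and when active they turn on genes of autophagy and of protein breakdown by the ubiquitin–proteasome system. The series asked, per its title and design text, what accompanies this regression. The members were chosen to be level, within the limit given above, between fasted hearts and the sampled time of growth, and lower in regression. Genes that differed by 1.5-fold or more on the CPM + 1 scale between 1DPF and fasted were not selected. Smaller changes were allowed, and the members' mean CPM at 1DPF lay between 85.9% and 143% of fasted. Whether the members are separate from genes that follow growth itself was not tested.

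Poly-A RNA was sequenced from wild-type captive-bred Python bivittatus in 4 groups of 2 libraries. These were fasted for 28 days, and 1, 4 and 6 days after a rodent meal of 25% of body mass that followed such a fast. Per the design text, 1DPF is a time of growth, while the hearts are in early regression at 4DPF and further along at 6DPF. The labels do not give the snakes' age or sex, and nothing in them ties each library to its own snake. They state 6 snakes for sequencing and proteomics, fewer than the 8 libraries, so p-values measure the spread between libraries, which may be in part technical. Library totals lay between 33203808 and 42250755 counts.

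The table names genes by number and does not pair the numbers with gene names. No function is therefore given for any member, and no heart cell marker or gene of the FoxO, autophagy or proteasome pathways could be looked up. The tissue label was not checked against markers. The members are ordered below by the size of their fall, by abundance and by their course between days 4 and 6. In RNA from left ventricle tissue, fewer cells of a type and less RNA per cell cannot be told apart. All CPM values are relative to the library's total.

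Across the 41 members, the median level in fasted replicates 1 and 2 was 21.96 and 21.2 CPM. It was 20.7 and 20.6 CPM in the 1DPF replicates, 12.5 and 11.4 CPM in the 4DPF replicates, and 15.5 and 11.2 CPM in the 6DPF replicates. The late medians are all below the early ones, as the rule requires of each member. At 1DPF the mean CPM of the members lay between 85.9% and 143% of fasted, with a median of 104%. At 4DPF it lay between 21.2% and 69.99% with a median of 55.2%, and at 6DPF between 26.9% and 71.4% with a median of 60.9%. The mean was below 50% of fasted in 15 members at 4DPF and in 6 at 6DPF. The fall, taken as the mean L of the 4 early libraries minus that of the 4 late ones, ranged from 0.56 to 1.85 with a median of 0.78, which is 1.72-fold on the CPM + 1 scale. It was at least 1, or 2-fold, in 9 members.

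**Figure D1:**
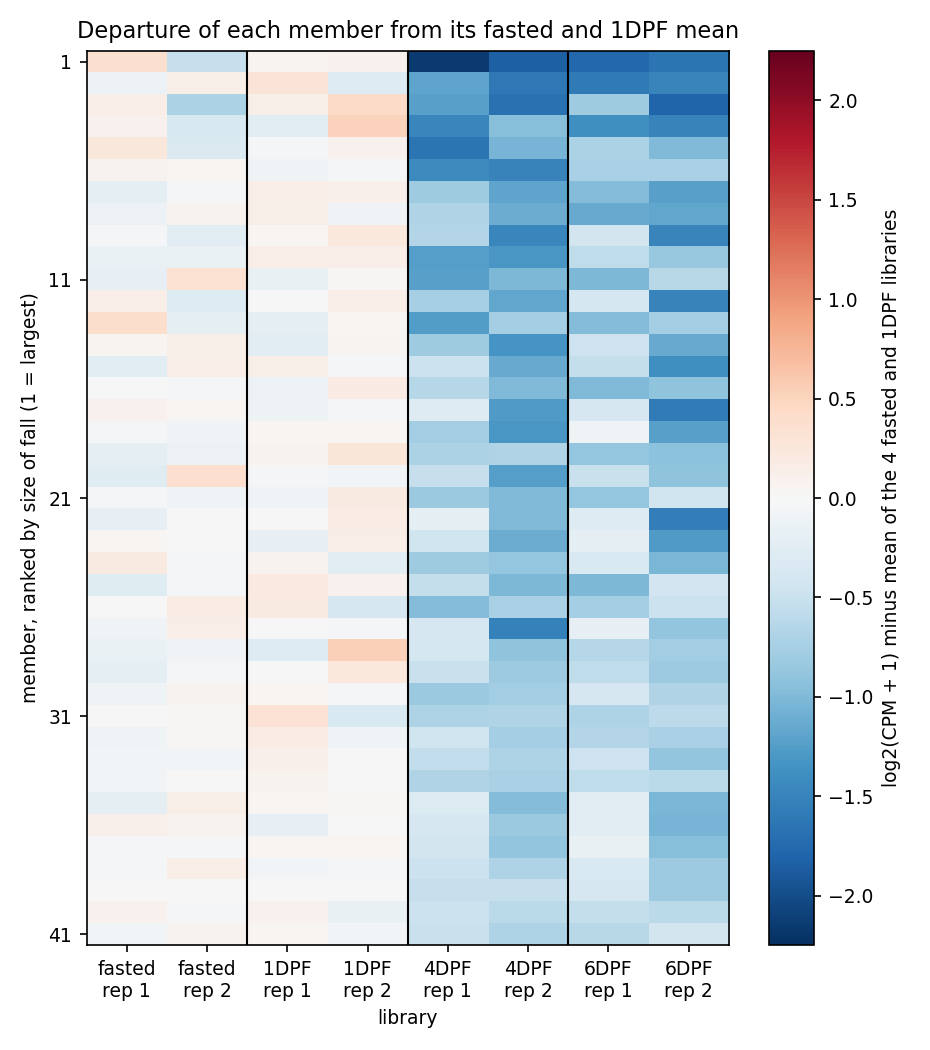
Each row is 1 of the 41 members, ranked by the size of the fall, and each column a library; colour gives log2(CPM + 1) minus the member's mean over the 4 fasted and 1DPF libraries. The fasted and 1DPF columns are pale in either colour, the 4DPF and 6DPF columns are blue, and among those the replicate 2 columns are the darker for most members.

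Gene 103063723, which is 2400 bases long in the table, had the largest fall. It had 22.6 and 11.8 CPM in the fasted libraries, 18.1 and 18.6 CPM at 1DPF, 3.14 and 4.16 CPM at 4DPF, and 4.40 and 4.85 CPM at 6DPF. Its late values were close to each other, and its fasted libraries differed from each other by more than any other pair of the same group. The means were 17.2 ± 7.66 CPM in fasted, 18.4 ± 0.355 at 1DPF, 3.65 ± 0.722 at 4DPF and 4.63 ± 0.319 at 6DPF (SD, n = 2 each). The fitted log2 differences of 4DPF were -2.22 (SE 0.33) from fasted and -2.29 (SE 0.33) from 1DPF. Those of 6DPF were -1.95 (SE 0.32) from fasted and -2.01 (SE 0.32) from 1DPF.

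Gene 103064799, of 5650 bases, had the next largest fall. It had 94.2 and 113 CPM in the fasted libraries, 127 and 85.0 CPM at 1DPF, 45.0 and 33.2 CPM at 4DPF, and 33.7 and 36.4 CPM at 6DPF. The 4 early libraries ranged widely, but the lowest of them was well above the highest late one. The means were 104 ± 13.2 CPM in fasted, 106 ± 29.99 at 1DPF, 39.1 ± 8.35 at 4DPF and 35.1 ± 1.95 at 6DPF (SD, n = 2 each). The fitted log2 differences of 4DPF were -1.39 (SE 0.21) from both fasted and 1DPF, and those of 6DPF were -1.61 (SE 0.21) from both. Per kilobase of the deposited length, fasted ventricle held 18.3 CPM of gene 103064799 and 7.17 CPM of gene 103063723.

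A single member was far more abundant than the rest. This gene, of 1255 bases, had 9701 and 14001 CPM in the fasted libraries, 9845 and 11305 CPM at 1DPF, 4748 and 5524 CPM at 4DPF, and 5474 and 7152 CPM at 6DPF. The highest late library was 6DPF replicate 2, and the lowest early one was fasted replicate 1. Its means were 11851 ± 3041 CPM in fasted, 10575 ± 1033 at 1DPF, 5136 ± 548 at 4DPF and 6313 ± 1186 at 6DPF (SD, n = 2 each). With it, the members together took 1.22% and 1.66% of the reads in the fasted libraries and 1.25% and 1.39% at 1DPF. At 4DPF they took 0.624% and 0.688%, and at 6DPF 0.704% and 0.859%. Without it, the other 40 summed to 2449 and 2557 CPM in fasted, 2684 and 2580 CPM at 1DPF, 1496 and 1359 CPM at 4DPF, and 1567 and 1435 CPM at 6DPF.

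**Figure D2:**
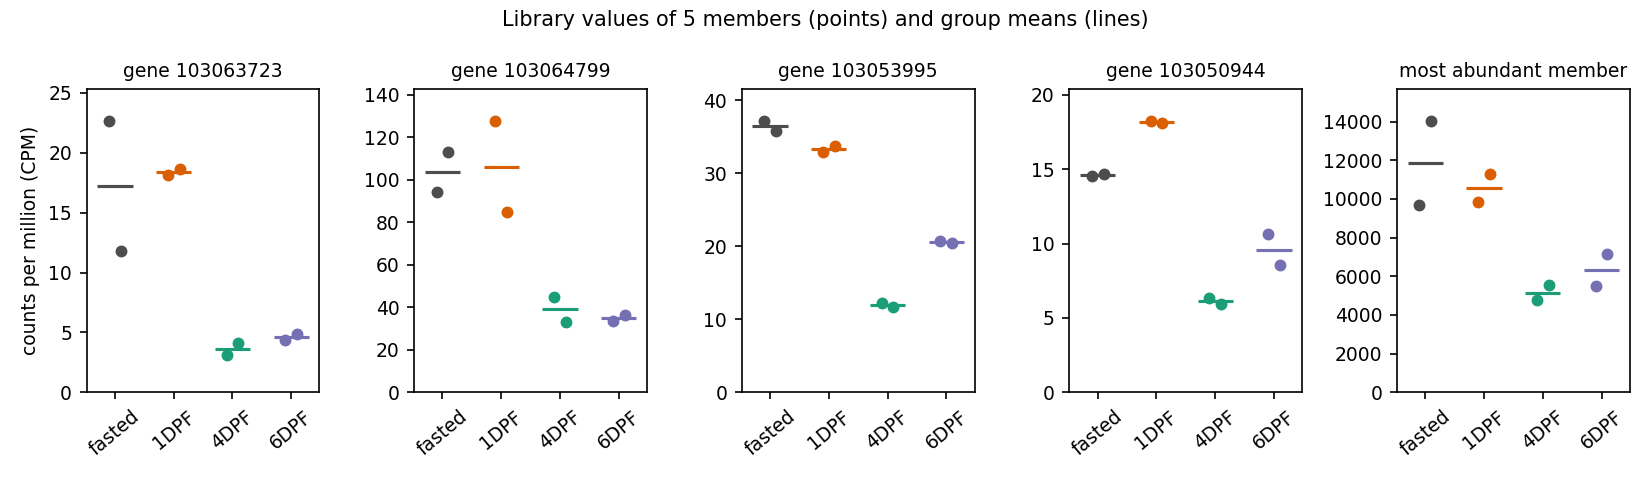
Points are the 2 libraries of each group and lines their mean, in CPM on axes that start at 0, for 4 members named by number and for the most abundant member. The 4DPF and 6DPF points are below all fasted and 1DPF points in each panel, and both 6DPF points are above both 4DPF points in the panels of genes 103063723, 103053995 and 103050944.

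Most members had moderate abundance. Averaged over the 8 libraries, 5 members had at least 100 CPM, 25 had 10 to 100 CPM and 11 had less than 10 CPM. The median fall in L was 0.78, 0.76 and 0.79 in these classes. Every member had at least 88 counts in every library, so none rests on a handful of reads. The median fasted level was 21.1 CPM for the members, against 13.3 CPM for all 16986 tested genes and 30.1 CPM for the 10540 genes with a fasted L of at least 3. Per kilobase the fasted medians were 9.09 CPM for the members and 10.7 CPM for those 10540 genes.

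Gene length was not used by the rule. The members' median length was 3191 bases, with quartiles of 2257 and 5593 bases and a range from 835 to 12956. Over all tested genes the median was 2503 bases, and over the genes with a fasted L of at least 3 it was 2982 bases. The members' median was thus 688 bases above that of all tested genes and 209.5 bases above that of the genes at that fasted level.

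The thresholds separated members from genes with nearly the same values. For the fall, the smallest of the 4 required differences was 0.504 in the member closest to the limit and 0.490 in the closest gene outside it that met all the other conditions. For the fasted level, the closest values were an L of 3.13 inside and 2.83 outside. For the difference between 1DPF and fasted they were 0.557 inside and 0.598 outside. The gap between the lowest early and the highest late library was 0.0225 in the closest member, and the closest excluded gene overlapped by 0.0114. This gap had a median of 0.29 over the members, was under 0.1 in 9 of them and reached at least 0.5 in 8. Within the members, the 1DPF mean was above the fasted mean in 26 and below it in 15, with differences in L between -0.20 and 0.56.

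The number of members depended on single libraries, above all on those of 6DPF. With 6DPF replicate 1 left out, 103 genes met the rule, of which 37 were among the 41. Without 6DPF replicate 2, 25 genes met it, of which 20 were among the 41. Leaving out any other library gave between 32 and 56 genes. Only 9 of the 41 met the rule in each of the 8 runs with 1 library left out. The mirrored rule, with higher in place of lower on days 4 and 6 and the other conditions as they are, selected 81 genes.

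Days 4 and 6 were compared because the rule sets no direction between them. It does limit the difference, since a member had to stay at least 0.5 below both early means at each time and below all early libraries. A gene back near its early level by day 6 could not be a member, so few calls and small changes are in part fixed by the choice, and nothing is read from their number. In edgeR's quasi-likelihood test over all 16986 tested genes, no member was called higher or lower at 6DPF than at 4DPF at a Benjamini-Hochberg adjusted p under 0.05. The background was low, as 0.053% of the tested genes were called higher and 0.0353% lower. At an unadjusted p under 0.05, 2 of the 41 members passed. The share of all tested genes, which have no such limit, was 15.8%. The median fitted log2 change was 0.02 for the members and 0.00163 for all tested genes, and the members ranged from -0.41 to 0.71. The members' median changed sign with single libraries: leaving out 4DPF replicate 2 gave -0.19, leaving out 6DPF replicate 1 gave -0.18, and leaving out the other library of 4DPF or of 6DPF gave 0.11 or 0.084. It was -0.0078 and -0.0079 when fasted replicate 1 or 2 was left out. The SE of a single member's change had a median of 0.24 and ran from 0.12 to 0.43. The median L over the members had an SD of 0.22 between the libraries of a group, pooled over 4DPF and 6DPF. The members' median change was below that SD in size in each of these fits. It could thus not be told from the spread between libraries. Both 6DPF libraries were above both 4DPF libraries in 6 members and below both in 2. In all tested genes, again without the limit, the shares were 27.3% and 18.1%.

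The members that passed without adjustment were both higher at 6DPF. They were singled out after their values were seen. Gene 103053995, of 4011 bases, had 37.1 and 35.8 CPM in fasted, 32.9 and 33.8 CPM at 1DPF, 12.2 and 11.7 CPM at 4DPF, and 20.7 and 20.5 CPM at 6DPF. Its libraries agreed closely within each group, and at 6DPF it stood between the 4DPF and the early values. The log2 change of 6DPF over 4DPF was 0.71 (SE 0.12, edgeR adjusted p = 0.0831). DESeq2 gave the same change and called it (adjusted p = 0.00258), where 2.5% of the genes that DESeq2 tested were called higher and 2.56% lower. No member was called lower by DESeq2. Over the alternatives its change was positive in each fit, with adjusted p between 0.00258 and 0.285.

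Gene 103050944, of 1535 bases, had 14.5 and 14.7 CPM in fasted, 18.2 and 18.1 CPM at 1DPF, 6.32 and 5.95 CPM at 4DPF, and 10.6 and 8.53 CPM at 6DPF. The groups did not overlap, which the rule required of the late against the early libraries. Its log2 change of 6DPF over 4DPF was 0.57 (SE 0.15, edgeR adjusted p = 0.148). The members with the largest falls had changes of 0.28 (SE 0.32) for gene 103063723 and -0.22 (SE 0.21) for gene 103064799, with edgeR adjusted p of 0.736 and 0.657. Both changes were close in size to their error, and so was that of the most abundant member, at 0.24 (SE 0.28).

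**Figure D3:**
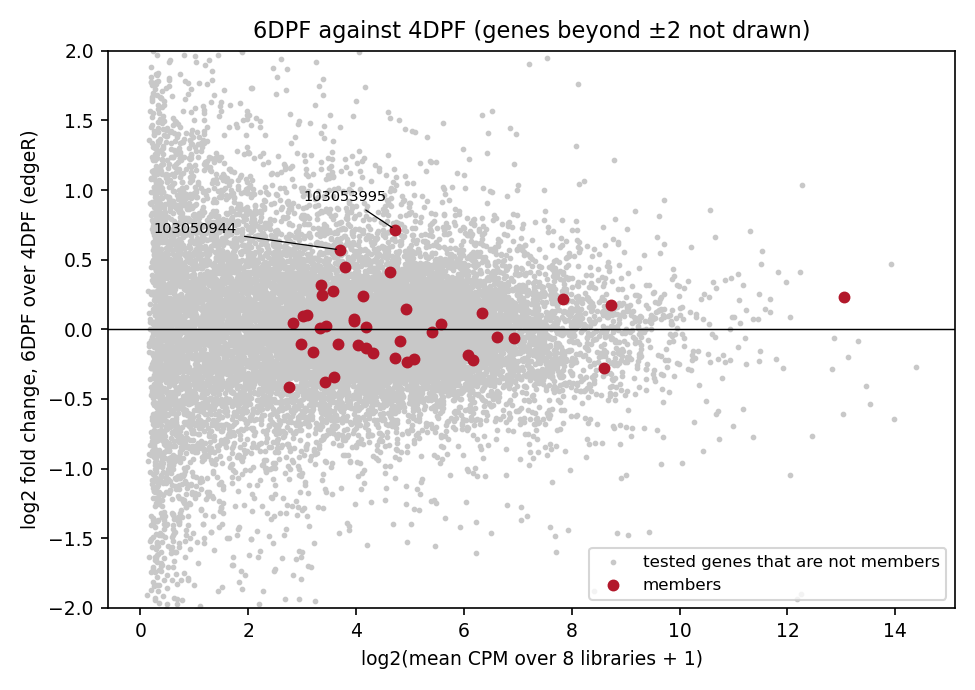
Each point is a tested gene, with log2 of its mean CPM plus 1 on the x axis and edgeR's log2 fold change of 6DPF over 4DPF on the y axis; 179 genes beyond ±2, none a member, are not drawn. The 41 members, in red, lie between -0.41 and 0.71 around 0, and the 2 labelled ones passed at an unadjusted p under 0.05.

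The other comparisons were used by the rule, which also required the early and late libraries to lie apart. The numbers of members called in them are therefore in part fixed by the choice and are given as a description only. The same edgeR fit called 17 of the 41 lower at 4DPF than fasted, where 4.02% of all tested genes were called lower. It called 15 lower at 4DPF than 1DPF (2.2% of all), 3 lower at 6DPF than fasted (0.0471%) and 23 lower at 6DPF than 1DPF (10.4%). The median log2 changes of the members were -0.85, -0.83, -0.78 and -0.79 in the same order. Those of all tested genes lay between -0.021 and -0.00038. These comparisons share the libraries of each group and are not independent of each other. With the replicate number as a block, 9 members were called lower at 4DPF than fasted, against 17 without it. Without fasted replicate 1 or 2, none was called at 4DPF or at 6DPF against fasted, with 25 or 26 members still at an unadjusted p under 0.05 in each of these fits. Without 4DPF replicates 1 and 2 in turn, 1 and 4 members were called at 4DPF against fasted. For 4DPF against 1DPF the count was 5 without either fasted library, 7 and 1 without 1DPF replicates 1 and 2, and 3 and 5 without 4DPF replicates 1 and 2. For 6DPF against fasted it was 1 without either 1DPF library and 0 without either 6DPF library, with 34 and 25 members under 0.05 before adjustment. For 6DPF against 1DPF it was 12 without 1DPF replicate 2 and 13 without 6DPF replicate 2. DESeq2 called 27, 27, 25 and 30 members lower in the 4 comparisons in the order above. Between 6DPF and 4DPF, DESeq2 called 2.5% of its 14463 tested genes higher, against 0.053% of the 16986 in edgeR. For DESeq2 and the other alternative fits, the share of all tested genes called lower in these 4 comparisons is not given here. Nothing is therefore read from the changes in count.

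Among the members, the late libraries differed more between replicates than the early ones did, which was not tested. At 4DPF the median absolute difference in L between the 2 libraries was 0.42 for the members, against 0.17 for the 10540 genes with a fasted L of at least 3. At 6DPF it was 0.39 against 0.19. In fasted ventricle it was 0.18 against 0.15, and at 1DPF 0.19 against 0.15. The more common direction was the same at 4DPF and 6DPF, but single members could differ between the 2 times. Gene 103064799, for example, had replicate 1 above replicate 2 at 4DPF and below it at 6DPF. Over all 16986 tested genes, the replicate differences at these 2 times correlated at 0.47. Replicate 1 was above replicate 2 in 31 members at 4DPF and in 31 at 6DPF, or 75.6%. Of the 10540 genes, 57.5% and 60.3% had that direction. In fasted and at 1DPF it was so in 19 and 20 members, or 46.3% and 48.8%, against 45.4% and 57.5% of the 10540 genes. The rule limits these differences through the required separation of early and late libraries. It also reads means of 2 libraries, so 1 low late library helps a gene to pass. Of the 41, 26 met the rule without 4DPF replicate 2 and 20 without 6DPF replicate 2. Without replicate 1 of 4DPF or of 6DPF, 41 and 37 did. The larger late differences and their direction may thus be in part fixed by the choice of members. How far was not tested.

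The depth of the fall therefore varied with the library in which it was read. Relative to a member's early mean, the median departure in L was -0.68 in 4DPF replicate 1 and -0.999 in 4DPF replicate 2. It was -0.57 in 6DPF replicate 1 and -0.91 in 6DPF replicate 2. The lowest of the 8 values was in 6DPF replicate 2 for 18 members, in 4DPF replicate 2 for 15, in 4DPF replicate 1 for 7 and in 6DPF replicate 1 for 1. The highest late value was in 6DPF replicate 1 for 20 members. The labels do not say what the replicate number stands for, and its part in the fall was not tested.

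**Figure D4:**
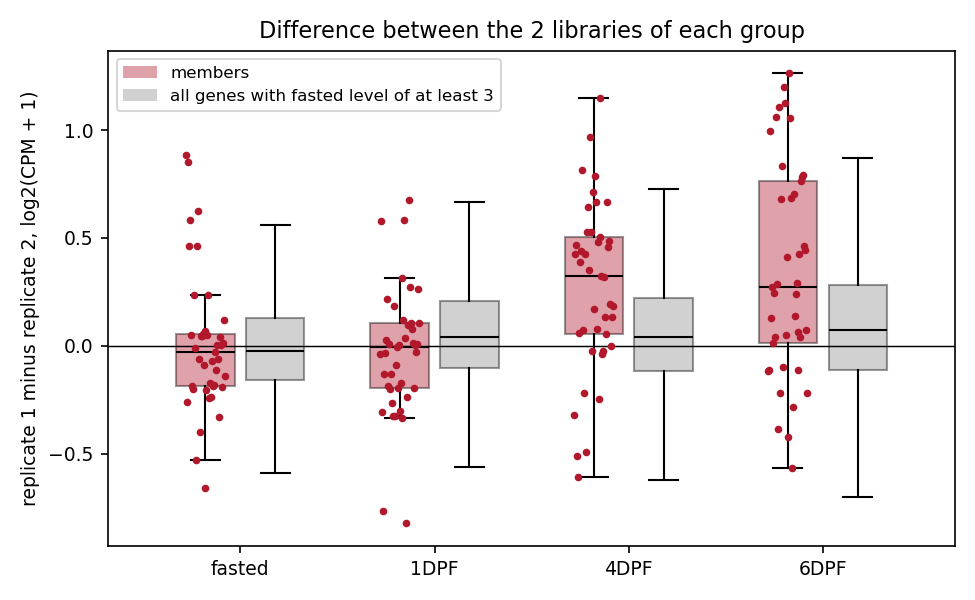
Boxes give the median and quartiles of replicate 1 minus replicate 2 in log2(CPM + 1) for the 41 members (red, with a point each) and for the 10540 genes with a fasted level of at least 3 (grey), and whiskers reach to the last value within 1.5 times the box height. The member medians are -0.03 in fasted, near 0 at 1DPF, 0.32 at 4DPF and 0.27 at 6DPF, against -0.02, 0.04, 0.04 and 0.07 for the grey boxes.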

How the data were processed

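The deposited table holds raw counts by gene for the 8 libraries and, in a further column, gene length. The submitters' processing notes list DESeq2 1.36.0, featureCounts, SAMtools 1.8, HISAT2 2.1.0, Trimmomatic 0.36 and FastQC. Build, annotation, strandedness and the treatment of multi-mapping reads were not given in the sources used here, so overlapping genes and near-identical copies have uncertain counts. Columns were matched to samples through the description labels.

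CPM is the count over the column total. The rule was applied to log2(CPM + 1), which understates changes of low genes. edgeR 4.0.16 (R 4.3.3) used filterByExpr (minimum count 10, minimum total 15), TMM factors and 1 quasi-likelihood fit of all 8 libraries with group as the term. Of 21368 genes, 16986 were tested, all 41 members among them. The fit had 4 residual degrees of freedom. Two-sided p-values were adjusted over all tested genes by Benjamini-Hochberg. SE is the absolute log2 change over the square root of F. The steps were tested on simulated data. Alternatives were limma 3.58.1 (voom), DESeq2 1.42.0, RLE factors, other filters and pseudocounts, a replicate block, 2 groups alone and each library left out.

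The members and lists were chosen with earlier results of these data known. Genes named by number are the 2 members with the largest fall, plus 2 chosen after their values were seen. The planned gene lists, marker lists and promoter motifs need gene names or sequences and were not run. In the check of pairing, differences between replicates 1 and 2 correlated over the tested genes at 0.47 for 6DPF with 4DPF and at -0.34 for 4DPF with 1DPF. The numbers were not taken to pair the libraries.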

Additional observations from a re-analysis of the deposited data

How the results depend on the processing

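With TMM or RLE scaling or another pseudocount, between 34 and 45 genes met the rule, and 36 of the 41 were kept under both scalings. With 1 library left out, the number ran from 25 to 103. In the fits with 2 libraries in each group, no member was called between 6DPF and 4DPF except by DESeq2. It called 1 member higher (gene 103053995, log2 change 0.71). Few calls are in part fixed by the choice of members. The main fit also called only 0.053% of all tested genes higher and 0.0353% lower, so nothing is read from this count. The median change of the members between 4DPF and 6DPF was 0.02 with all libraries and ran from -0.19 to 0.11, with either sign, with 1 library left out. It was also below 0 with limma voom, at -0.021, and with the replicate block, at -0.012. The other counts of called members moved. The share of all tested genes called in the same alternative fits is not given here. Whether the calls of the members moved or those of the whole fit cannot be told from these counts. DESeq2 called 27 lower at 4DPF than fasted, 27 lower at 4DPF than 1DPF and 25 lower at 6DPF than fasted. The replicate block gave 9 at 4DPF against fasted and changed no other count of members by over 1.5 times. Fits on 2 groups alone gave 0 at 4DPF against 1DPF (33 members at an unadjusted p under 0.05), 6 at 6DPF against fasted and 15 at 6DPF against 1DPF. At 6DPF against fasted, no filter gave 5 and limma voom 0 (37 members at an unadjusted p under 0.05). With 1 library left out, the counts ran from 0 to 16 at 4DPF against fasted, from 1 to 13 at 4DPF against 1DPF, from 0 to 4 at 6DPF against fasted and from 12 to 20 at 6DPF against 1DPF, and no member was called between 6DPF and 4DPF. What causes the moves in these counts was not tested. A group left with 1 library is assumed to vary like the others. The named genes kept the direction of their 6DPF against 4DPF change in all fits, though for 2 of them it came close to 0. With 1 library left out, the log2 change ran from 0.05 to 0.49 for gene 103063723 and from -0.43 to -0.027 for gene 103064799. It ran from 0.63 to 0.78 for gene 103053995 and from 0.47 to 0.64 for gene 103050944. Promoter motifs were not run.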
